A study of Nasturtium officinale with 24 samples.

Results

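Stems of watercress (Nasturtium officinale) kept completely under water for 1 day were set against stems kept in air for 1 day, with 3 libraries in each group. The 6 libraries, of 24 in the series, were chosen by their labels alone: tissue stem, treatment submergence or air, and duration 1 day. Each library came from a pool of 5 plants of about 3 weeks, at the stage of 5 to 6 leaves, that had grown at 23 °C in short days (light for 8 h, dark for 16 h). The plants under water and the plants in air stood in similar tubs, were treated at the same hour of the light period and are otherwise not distinguished by the labels. The rest of the series holds the same pair of treatments in petioles, the leaf stalks, and on a second day.

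Watercress is a semi-aquatic herb of the cabbage family whose stems grow longer under water, which can bring the shoot back to the air. Gases move slowly through water, so a submerged shoot traps the hormone ethylene and, above all in the dark, runs short of oxygen. In rice and in Rumex, trapped ethylene is known to lower abscisic acid and to raise the response to gibberellin, which drives growth of the stem or petiole towards the surface, while shortage of oxygen switches on fermentation. Plants under water also lose less water and take up less carbon dioxide. Which genes carried these roles in the stems could not be read here, because the deposited tables name transcript contigs by identifier and pair none with a gene. The labelled tissue could not be checked against marker genes for the same reason, and contigs are described below by level, length, size of change and behaviour in the other libraries.

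The tables list 80741 contigs of 201 to 12603 bases, and 53919 of them, with a median of 1034 bases, had enough reads to be tested. The 6 stem libraries held 25136086 to 48928331 estimated counts. A gene may be represented by several contigs, so counts of contigs do not count genes. Levels of a single contig between libraries are given as TPM, the authors' abundance per effective length, scaled to the same total in every library. Changes are fitted log2 values from the counts, with their standard error (SE), and a contig is called at an adjusted p under 0.05 (edgeR, Benjamini-Hochberg over all tested contigs). In whole stems, fewer cells of a type and less RNA per cell cannot be told apart. The labels do not say whether the 3 pools of a group were grown and treated separately. The p-values therefore measure the spread between pools of a group, estimated jointly over all 24 libraries of the series.

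The 6 libraries separated by treatment. In a principal component analysis of their log2 CPM (counts scaled to a common library total), the first component held 49.8% of the variance: the submerged stems lay between -129 and -112.1 and the stems in air between 98.1 and 131.6. The second component, with 16.3%, spread the stems in air, with replicate 1 at 121.9 and replicate 2 at -109.1. Replicate 1 in air also had a lower share of its TPM in its 10 most abundant contigs, 8.46% against 16.1% and 13.6% in the other stems in air, and the highest TMM scaling factor of the 6, 1.19. The median SD of log2 CPM per contig was 0.250 under water and 0.275 in air. In a check for libraries deposited more than once, every pair of a group differed by more than counting noise, with a chi-square per degree of freedom of 15.99 or more.

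After 1 day under water 5384 contigs were higher, 9.99% of those tested, and 4900 were lower, 9.09%. The median change was 1.19 on the log2 scale among the contigs that rose and -1.11 among those that fell, against -0.03 over all tested contigs. The submerged libraries did not overlap with those in air for 5329 of the 5384 contigs that rose, lying above all of them, and for 4847 of the 4900 that fell, lying below. Over all tested contigs such a separation was found upwards for 19.5% and downwards for 21.4%. Rises and falls were thus close in number, but which were more numerous changed with the scaling. Scaled by library totals, 4304 contigs rose and 5747 fell, and the median change of all tested contigs moved to -0.14. Without replicate 1 of the stems in air, 4397 contigs were higher and 3906 lower.

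Large changes were found in both directions, for a small share of the contigs tested. Fitted changes of at least 2-fold were found for 3182 called contigs that rose (5.9% of those tested) and 2708 that fell (5.02%). A test against a 2-fold bound (edgeR glmTreat) called 2321 contigs. At least 8-fold changes were found for 617 (1.14%) and 501 (0.929%). At 32-fold or more there were 152 contigs that rose (0.282%) and 175 that fell (0.325%). At 128-fold or more the numbers were 39 (0.0723%) and 70 (0.13%), 109 contigs in all. Of these, 51 had at most 3 counts in every library under water and 33 at most 3 counts in every library in air, so that their fitted change has no fixed size. The other 25 had more than 3 counts in at least 1 library of each group.

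**Figure D1:**
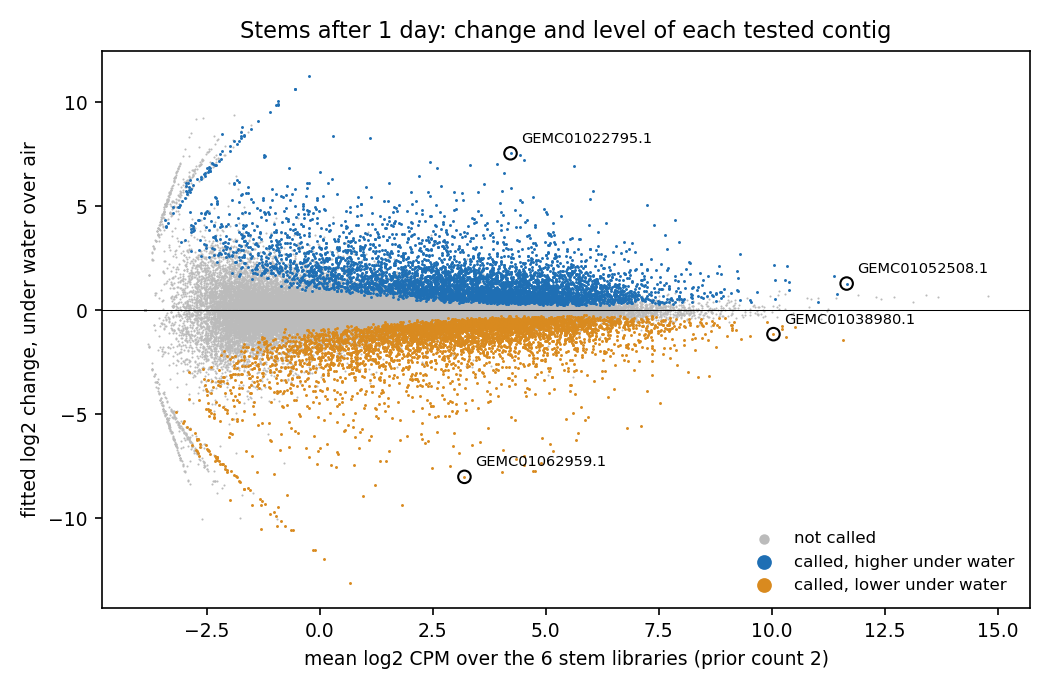
Fitted log2 change under water over air (vertical axis) against the mean log2 CPM of the 6 stem libraries (horizontal axis) for each of the 53919 tested contigs, coloured by call. The 4 ringed contigs are those named in the text: GEMC01022795.1 and GEMC01062959.1 changed most among contigs at or above a mean log2 CPM of 3, and GEMC01052508.1 and GEMC01038980.1 lie at the abundant end of the plot.

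Calls were more frequent among abundant contigs. In the lowest of 5 equal-sized classes of mean level 3.22% of the contigs were called higher and 2.76% lower, and in the highest class 19.6% were higher and 15% lower. The changes called in the lowest class had a median size of 3.42 on the log2 scale, against 0.81 in the highest class. At low counts a call takes a large change, so these medians of called contigs do not compare the classes. The share of contigs called and changed at least 2-fold was 5.97% in the lowest class and between 10.5% and 13.0% in the other 4 classes. The part of depth in this difference was not tested.

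By length the calls were fewest, 11.2%, in the shortest class (201 to 437 bases) and most, 23.5%, in the class of 1271 to 1879 bases. In the longest class, above 1879 bases, 11.6% were higher and 8.63% lower. Level and length went together, with a median length of 509 bases in the lowest level class and 1550 bases in the highest. Within each of the 5 level classes the shorter contigs were called at least as often as the longer ones, with 35.3% and 33.9% in the highest class and 28.2% and 23.7% in the next. The rise of calls with length thus did not hold within levels.

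**Figure D2:**
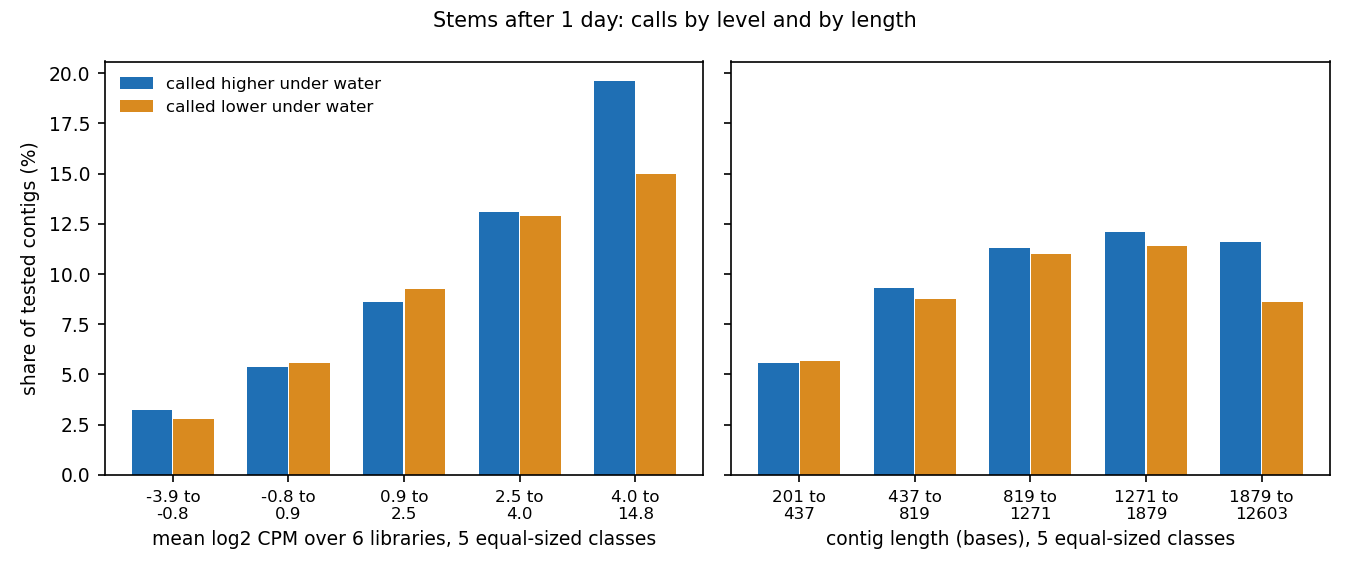
Share of tested contigs called higher or lower under water (vertical axis, %) in 5 equal-sized classes of mean log2 CPM (left) and of contig length in bases (right). Calls rise with level to 19.6% higher and 15% lower, and the shortest contigs have the fewest calls.

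GEMC01022795.1 (2327 bases) had the largest rise among contigs at or above a mean log2 CPM of 3. It stood at 113, 84.1 and 69.5 TPM in the submerged stems, against 0.574, 0.428 and 0.566 TPM in stems in air. The groups lay far apart, and the log2 change was 7.55 ± 0.30 (SE; edgeR, adjusted p = 3.7e-12). At 2 days the submerged stems were higher again, with 179, 159 and 208 TPM, against 0.585, 0.536 and 0.537 TPM in air. Submerged petioles at 1 day had 49.8, 89.7 and 68.5 TPM, against 0.476, 0.532 and 0.925 TPM in air. The difference between the responses of stem and petiole was 0.87 ± 0.36 on the log2 scale and did not pass the test (edgeR, adjusted p = 0.52).

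GEMC01052508.1 (756 bases) gained most transcripts among the called contigs. It stood at 6678, 5796 and 7531 TPM in submerged stems, against 2980, 2887 and 3106 TPM in stems in air, and every submerged library lay above every library in air. The log2 change was 1.29 ± 0.17 (SE; edgeR, adjusted p = 1e-05). The contig was also more abundant in stems than in petioles: at 1 day petioles under water had 2796, 2997 and 2962 TPM, close to stems in air, and petioles in air had 1684, 1320 and 1166 TPM. The contig with the preceding number, GEMC01052507.1, also rose, with a mean of 2473 TPM under water and 1003 TPM in air; it was picked out after its values were seen.

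GEMC01062959.1 (1582 bases) had the largest fall at or above the same level. It stood at 0.252, 0.406 and 0.224 TPM in submerged stems, against 86.4, 84.3 and 78.8 TPM in stems in air. The fitted change was -8.01 ± 0.33 on the log2 scale (SE; edgeR, adjusted p = 6.3e-12), and the lowest submerged library still had 13 counts of it. At 2 days it was at 0.292, 0.236 and 0.254 TPM in submerged stems, against 53.8, 82.9 and 72.3 TPM in air. The low level under water was thus met on both days, and in petioles it was 0.259, 0.331 and 0.278 TPM at 1 day.

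GEMC01038980.1 (394 bases) lost most transcripts among the called contigs. It stood at 2839, 2245 and 2283 TPM in submerged stems, against 6950, 5433 and 5624 TPM in stems in air (log2 change -1.15 ± 0.15, SE; edgeR, adjusted p = 1.4e-05). All 3 submerged libraries were below all libraries in air. In petioles at 1 day it was at 2459, 3088 and 3601 TPM under water and 6723, 7378 and 7738 TPM in air.

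**Figure D3:**
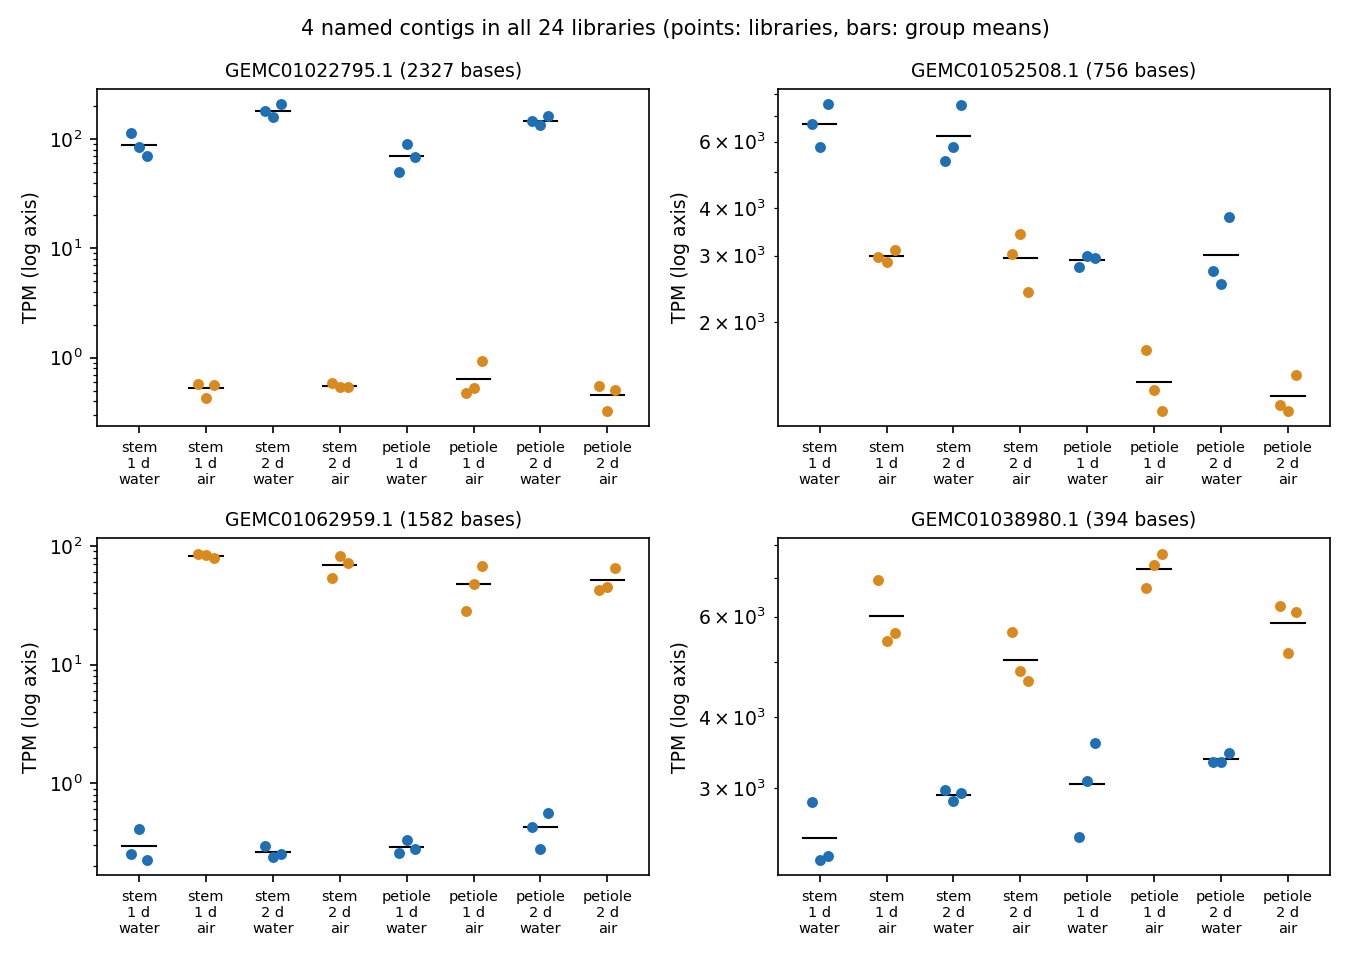
TPM (log axis) of the 4 named contigs in all 24 libraries, by tissue, day and treatment; points are libraries and bars are group means. In each panel the submerged and air libraries of stems at 1 day do not overlap, and the same holds for the other 3 pairs of groups.

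The called contigs, 19.1% of those tested, held less of the TPM than the contigs without a call. The contigs that rose made up 22.2%, 20.01% and 22.7% of all TPM in the submerged stems, against 9.99%, 8.73% and 10.3% in stems in air. Those that fell made up 7.05%, 6.77% and 6.99% under water, against 18.7%, 16.8% and 16.6% in air. Contigs without a call held 71.1% ± 1.55 of TPM under water and 72.6% ± 1.68 in air (SD, n = 3 each). These sums describe contigs chosen by the same comparison and carry no test. Contigs changed at least 8-fold were a small part of them: the risers held 2.16% ± 0.225 of TPM under water and 0.139% ± 0.0328 in air, and the fallers 0.0889% ± 0.00745 under water and 1.81% ± 0.227 in air (SD, n = 3 each).

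Among the 100 contigs with the highest mean TPM under water 30 had risen and 3 had fallen, and among the 100 highest in air 10 had risen and 20 had fallen. In the highest of the 5 level classes 19.6% were called higher and 15% lower, and of all tested contigs 9.99% and 9.09%. The lists shared 73 contigs, so 27 of each were replaced. Of the 27 that were among the first 100 under water and not in air, 20 were called higher. Of the 27 found in air and not under water, 17 were called lower. The ranks and the calls come from the same 6 libraries, so these counts are a description. The 10 called contigs that gained most TPM together held 31080 TPM under water and 11210 TPM in air. Of these, 9 were called higher in petioles at 1 day and 9 in stems at 2 days. Over all tested contigs the shares called higher there were 13.5% and 10.4%. The 10 called contigs that lost most held 6861 TPM under water and 20910 TPM in air. Again 9 were called lower in petioles at 1 day and 9 in stems at 2 days, against 10.8% and 10.5% of all tested contigs. Among the 10 that gained most, the steepest rise was 33.0-fold, in a contig of 651 bases with a mean of 1426 TPM under water and 48.0 TPM in air.

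The 2 most abundant contigs of the stems were not called. GEMC01043205.1 (250 bases) stood at 55420, 66260 and 44160 TPM under water and at 18170, 52550 and 43080 TPM in air (log2 change 0.63 ± 0.51, SE; edgeR, adjusted p = 0.46). The groups overlapped, and the low value in air was that of replicate 1. GEMC01043202.1 (460 bases) had the same pattern, with 43000, 57250 and 39550 TPM under water and 18520, 43250 and 33110 TPM in air (edgeR, adjusted p = 0.41). These contigs are named because they are the most abundant, outside the rule for named contigs. The share of transcripts in the most abundant contigs had a higher mean under water, with overlapping groups. The 10 most abundant contigs of each library held 17.6% ± 2.72 of TPM under water and 12.7% ± 3.88 in air (SD, n = 3 each; two-sided exact permutation test, p = 0.2, where 3 against 3 libraries cannot go below 0.10). The same test gave p = 0.2 (exact permutation, n = 3 each) for the 100 and for the 1000 most abundant contigs, in which the means under water were 31.3% and 52.5% and those in air 25.2% and 48.0%. Without replicate 1 in air the difference for the 10 most abundant contigs was 2.75 percentage points, against 4.87 with it.

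**Figure D4:**
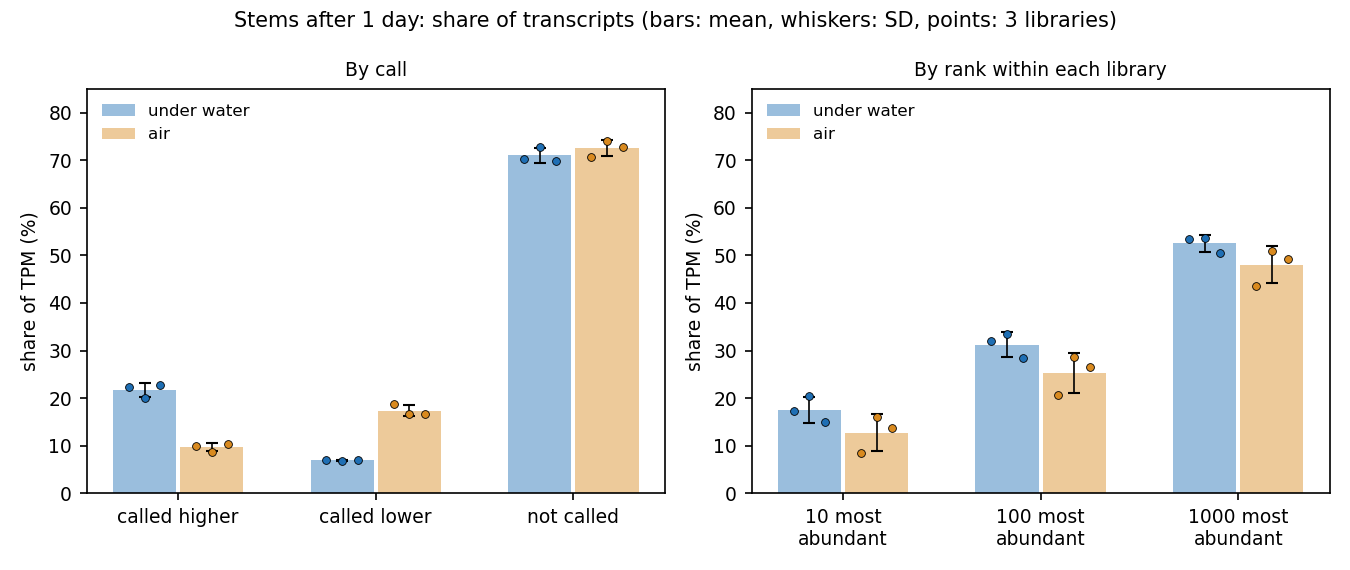
Share of TPM (vertical axis, %) in stems after 1 day, by call (left) and in the 10, 100 and 1000 most abundant contigs of each library (right); bars are means, whiskers SD and points the 3 libraries of a group. Contigs called higher held 20.01% to 22.7% of TPM under water and 8.73% to 10.3% in air, while the shares by rank overlap between the groups.

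Few contigs were switched fully on or off. With at most 3 counts in every library in air and at least 1 CPM in every library under water there were 26 contigs, of which 25 were called and 2 reached a mean of 10 CPM. A count of 3 corresponded to 0.0630 to 0.102 CPM in these libraries. In the other direction 31 contigs had at most 3 counts in every submerged library and at least 1 CPM in every library in air, with 29 called and 4 at a mean of 10 CPM or more. Both sets were chosen by the values that the call tests, so their calls in stems at 1 day are no result. The highest mean was 14.5 CPM among the 26 and 36.9 CPM among the 31. Of the 26, 20 were also called higher in petioles at 1 day and 20 in stems at 2 days, against 13.5% and 10.4% of all tested contigs. Of the 31, 22 were called lower in petioles and 21 in stems at 2 days, against 10.8% and 10.5%.

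Contigs with consecutive identifier numbers tended to be called together. There were 41799 pairs of tested contigs in which the number of the second followed directly on that of the first. After a contig that rose, the next was also called higher in 30.7% of 4338 pairs and lower in 4.66%. After a contig that fell, the next was called lower in 28.3% of 3725 pairs and higher in 5.91%. After a contig without a call, 8.35% of the next were higher and 7.59% lower. The 5384 contigs that rose formed 4051 runs of consecutive numbers, the longest with 11 contigs, and the 4900 that fell formed 3844 runs, the longest with 15. What consecutive numbers share is not stated in the files, and the part of reads split between contigs was not tested. In 422 pairs the neighbours were called in opposite directions.

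Reads shared between contigs could be set aside in part. For 13538 of the tested contigs, 25.1%, the estimated counts were whole numbers within 1e-06 in all 6 libraries, as they are when no read was split. With p-values adjusted over these contigs alone, 1072 were higher and 1307 lower, 45.1% higher among those called against 52.4% in the full set. They were less abundant, with a median mean log2 CPM of 0.34 against 2.17 for the others. In the highest level class 17.1% of the contigs with whole counts were called higher and 19.1% lower, against 20% and 14.3% of the other contigs.

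The response of stems at 1 day was met again in libraries that it does not share. In petioles at 1 day, where 13.5% of all tested contigs were called higher and 10.8% lower, 79.1% of the 5384 contigs that rose in stems were called higher and 70.1% of the 4900 that fell were called lower. In stems at 2 days, where 10.4% of all tested contigs were higher and 10.5% lower, the shares were 63.6% and 62.0%. Scaling by library totals gave 6430 higher and 4134 lower in stems at 2 days, against 5584 and 5684 here. Stem and petiole samples may come from the same plants, which the labels do not say, while plants of the second day were harvested later. Among contigs that rose, the shares in petioles were highest for changes of at least 2-fold, 4-fold and 8-fold: of the 1300 contigs that rose at least 4-fold, 85.8% were called higher in petioles at 1 day and 73.5% in stems at 2 days. At the largest changes counted above, where most contigs had a group at 3 counts or fewer, they were 61.5% and 64.1%. With each comparison fitted to its own libraries, the share met again in petioles was 40.5% of the contigs called in stems, against 74.9% here. Those fits called fewer contigs in petioles at 1 day, 6100 against 13080 here, and more in stems, 11879 against 10284.

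Opposite calls were rare. In petioles at 1 day 9 contigs that rose in stems were called lower and 12 that fell were called higher. In stems at 2 days the numbers were 5 and 14. A call in stems at 1 day and in neither other comparison was found for 733 of the contigs that rose (13.6%) and 973 of those that fell (19.9%). Most of these changed in the same direction without a call, 640 of the 733 in petioles and 607 in stems at 2 days. Their changes were smaller, with a median size of 0.87 on the log2 scale for the 733 and 0.97 for the 973. The tests of the difference itself passed for few of them, 5 and 11 against petioles and 2 and 12 against the second day.

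**Figure D5:**
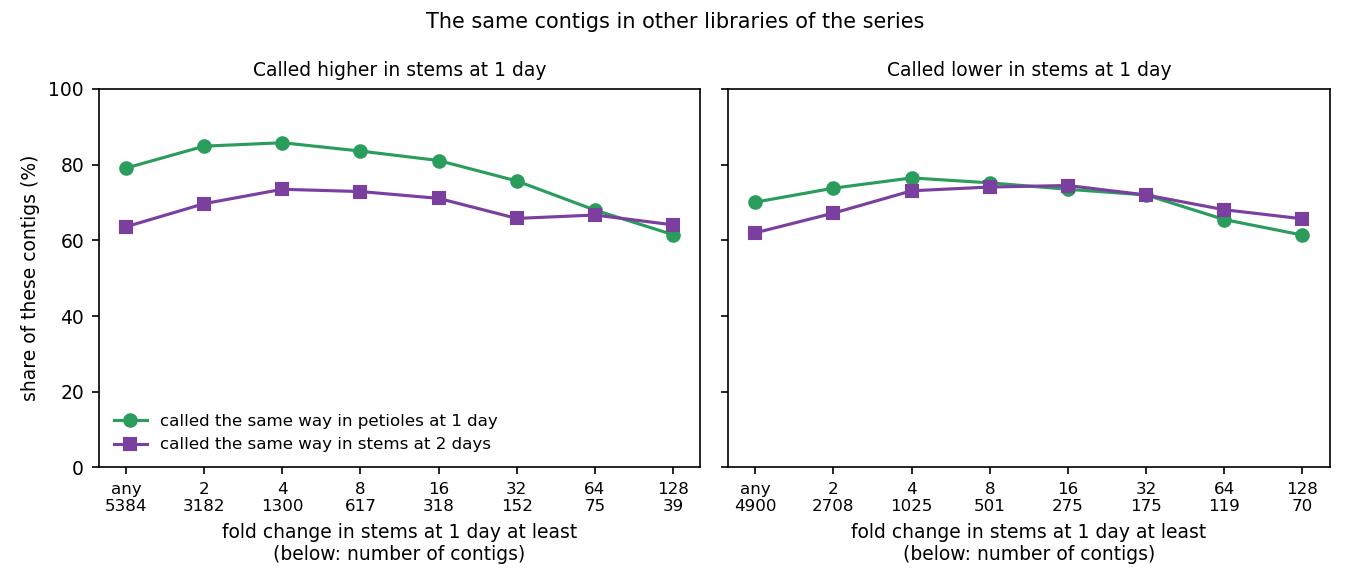
Share of the contigs called higher (left) or lower (right) in stems at 1 day that were called in the same direction in petioles at 1 day and in stems at 2 days (vertical axis, %), by least fold change in stems at 1 day (horizontal axis, with the number of contigs below). For contigs that rose the petiole share reaches 85.8% at 4-fold and lies above the share at 2 days up to 64-fold; for contigs that fell the shares lie closer together.

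A list chosen in petioles gave a view of stems that their own values did not choose. Of the 4532 contigs called and raised at least 2-fold in petioles at 1 day, 4309 had a positive change in stems at 1 day and 63.9% were called higher there, against 9.99% of all tested contigs. Their median log2 change was 1.35 in stems at 1 day and 1.12 in stems at 2 days, against -0.03 and -0.01 over all tested contigs. Of the 3171 contigs lowered at least 2-fold in petioles, 3096 had a negative change in stems at 1 day. There 66.3% were called lower, against 9.09% of all tested contigs. The shares of all tested contigs with a positive or a negative change are not given here. Their median was -1.31 at 1 day and -1.19 at 2 days.

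Contigs that differed between stem and petiole in air were also followed in the response of stems. In air at 2 days, in libraries that the comparison at 1 day does not use, 9.77% of the tested contigs differed between stem and petiole, 3.84% higher and 5.92% lower in stem. Scaling by library totals turned this balance, with 4502 higher and 2397 lower against 2072 and 3194. TMM scaling set apart 969 contigs called and at least 2-fold higher in stem, 1.8% of those tested, and 1879 at least 2-fold higher in petiole, 3.48%. Of the stem-rich contigs 18.4% fell and 16.3% rose in stems after 1 day under water, against 9.09% and 9.99% of all tested contigs. Of the petiole-rich contigs 20% rose and 14.3% fell. The median change was -0.18 on the log2 scale for stem-rich and 0.12 for petiole-rich contigs. Both sets lay above all tested contigs in level, with a median mean log2 CPM of 1.88 and 2.46 against 1.71. The part of level in these shares was not tested. Of the 262 contigs at least 8-fold higher in stem, 9.92% rose and 16.8% fell in stems at 1 day. Of the 127 at least 8-fold higher in petiole, 14.2% rose and 6.3% fell. Rises of the 8-fold stem-rich and falls of the 8-fold petiole-rich contigs thus did not exceed the shares of all tested contigs. The median mean log2 CPM of these 8-fold sets was 0.37 and -1.90. With limma-voom 31.8% of the contigs at least 2-fold higher in stem were called lower in stems, and in fits to the libraries of each comparison alone 30.7%. These fits chose the stem-rich contigs anew. They also called more contigs lower in stems at 1 day, 5923 and 5846 against 4900, so the shares do not compare the same contigs.

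The response of stems differed from that of petioles at 1 day for 119 contigs, 0.221% of those tested, by the tissue by treatment interaction. It was more positive in stems for 38 (0.0705%) and more negative for 81 (0.15%). Of the 81, 31 rose and 19 fell in stems, while 71 rose in petioles. Of the 38, 30 fell in petioles, while 13 rose and 11 fell in stems. Over all tested contigs 13.5% rose and 10.8% fell in petioles, and 9.99% rose and 9.09% fell in stems. The interaction is built from these same changes, so the counts are a description. Of the 21 contigs called in opposite directions in the tissues, 14 passed the test of the difference.

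GEMC01015786.1 (975 bases) differed most among contigs at or above a mean log2 CPM of 3. It stood at 16.5, 13.4 and 11.9 TPM in submerged stems and 5.56, 5.46 and 5.42 TPM in stems in air, a rise of 1.48 ± 0.27 on the log2 scale (edgeR, adjusted p = 4e-04). In petioles it stood at 277, 408 and 453 TPM under water and 5.07, 5.83 and 8.34 TPM in air. In air both tissues were near the same level. The responses differed by -4.32 ± 0.38 on the log2 scale, stem minus petiole (SE; adjusted p = 1.8e-05, edgeR). GEMC01030224.1 (1390 bases) was at 22.7, 29.0 and 35.1 TPM in submerged stems and 52.4, 33.7 and 39.3 TPM in stems in air, with overlapping groups, and its change of -0.38 ± 0.28 did not pass the test (edgeR, adjusted p = 0.42). In petioles it was at 16.8, 13.8 and 19.4 TPM under water and 2.63, 1.52 and 4.01 TPM in air (difference -2.94 ± 0.42, edgeR adjusted p = 0.0026).

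More positive in stems was GEMC01044483.1 (1370 bases), which rose in stems, with 222, 132 and 183 TPM under water and 85.7, 53.9 and 106 TPM in air, without overlap. In petioles it was at 12.01, 13.5 and 25.7 TPM under water and 21.8, 38.8 and 63.1 TPM in air, where the groups overlapped and the fitted change was -1.34 ± 0.38 (edgeR, adjusted p = 0.013). The difference was 2.61 ± 0.53 (SE; edgeR, adjusted p = 0.044). At 2 days submerged stems had 72.7, 99.8 and 101 TPM, against 67.1, 105 and 93.3 TPM in air, and its change there did not pass the test (edgeR, adjusted p = 0.94). GEMC01064667.1 (1321 bases) had 1 submerged library far above the others. Submerged stems stood at 23.3, 120 and 18.8 TPM, against 16.4, 19.2 and 19.8 TPM in air. In petioles at 1 day it was at 20.7, 27.8 and 26.3 TPM under water and 77.4, 77.5 and 90.1 TPM in air. The difference was 3.48 ± 0.62 (SE; edgeR, adjusted p = 0.019), and 2.12 without replicate 2 of the submerged stems (edgeR, adjusted p = 0.00056).

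The number of contigs with such a difference was not firm. It was 670 with DESeq2, 64 with limma-voom and 15 in a fit to the 12 libraries compared. Scaling by library totals gave 33 more positive in stems and 170 more negative. Leaving out 1 library in turn gave 57, 63 and 60 without replicates 1, 2 and 3 of stems in air, 73, 61 and 53 without those of submerged stems, 67 without replicate 2 of petioles in air, and 299, 53 and 62 without replicates 1, 2 and 3 of submerged petioles.

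The response of stems at 1 day differed from that at 2 days for 71 contigs, 0.132% of those tested, by the time by treatment interaction. It was more positive at 1 day for 24 (0.0445%), of which 22 rose at 1 day and 7 were still called higher at 2 days. It was more negative for 47 (0.0872%), of which 39 fell at 1 day, while 7 were called lower and 17 higher at 2 days. Over all tested contigs 9.99% rose and 9.09% fell at 1 day, and 10.4% rose and 10.5% fell at 2 days. This interaction too is built from the changes counted, so the counts are a description.

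GEMC01011130.1 (542 bases) led the early risers. Submerged stems had 372, 564 and 831 TPM at 1 day, against 4.45, 4.91 and 3.58 TPM in air. At 2 days submerged stems had 109, 103 and 73.8 TPM, against 9.08, 12.8 and 5.03 TPM in air. The rise was 7.23 ± 0.57 at 1 day and 3.36 ± 0.48 at 2 days on the log2 scale, a difference of 3.87 ± 0.66 (SE; edgeR, adjusted p = 0.023). GEMC01024297.1 (1848 bases) was at 200, 237 and 310 TPM in submerged stems at 1 day, against 2.50, 1.89 and 2.25 TPM in air. At 2 days it was at 50.1, 36.2 and 44.0 TPM under water, against 2.05, 2.14 and 1.94 TPM in air (difference 2.65 ± 0.43, SE; edgeR, adjusted p = 0.019). Both contigs were also higher in submerged petioles at 1 day than at 2 days. GEMC01011130.1 had 353.6, 706.8 and 944.5 TPM there at 1 day and 217.7, 264 and 131.5 TPM at 2 days. GEMC01024297.1 had means of 175.3 and 78.85 TPM. The difference between days in petioles was not tested.

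Among the early fallers GEMC01017346.1 (921 bases) had 6.30, 5.22 and 4.61 TPM in submerged stems at 1 day, against 22.5, 17.4 and 21.0 TPM in air. At 2 days the groups overlapped, with 13.6, 26.4 and 16.2 TPM under water and 16.7, 17.9 and 15.1 TPM in air (difference -1.83 ± 0.30, SE; edgeR, adjusted p = 0.019). In petioles its change at 1 day, -0.30 ± 0.21, did not pass the test (edgeR, adjusted p = 0.34), and the difference from stems did (-1.46 ± 0.30, edgeR, adjusted p = 0.046). GEMC01016520.1 (771 bases) had 11.7, 7.99 and 9.86 TPM in submerged stems at 1 day, against 38.2, 24.1 and 25.4 TPM in air, and 35.2, 24.8 and 33.5 TPM under water at 2 days, against 23.1, 27.8 and 18.6 TPM in air (difference -1.74 ± 0.34, SE; edgeR, adjusted p = 0.045).

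This number also moved with single libraries. It was 923 with DESeq2, 365 in a fit to the 12 stem libraries, of which 231 were more positive and 134 more negative at 1 day, and 118 with a stricter filter on low counts, and scaling by library totals gave 32 more positive and 250 more negative. It was 4 and 17 without replicates 1 and 2 of stems in air at 1 day, 15 and 13 without replicates 2 and 3 of submerged stems at 1 day, 11, 13 and 17 without replicates 1, 2 and 3 of stems in air at 2 days, and 22 and 25 without replicates 1 and 2 of submerged stems at 2 days. The size of the differences moved less: that of GEMC01011130.1 stayed between 3.58 and 4.11 in 20 other fits and that of GEMC01024297.1 between 2.46 and 2.76.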

How the data were processed

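RNA-seq libraries were made from bead-isolated messenger RNA by the BrAD-seq method without strand and sequenced as 100 bp pairs, per the labels' protocols. Without strand, sense and antisense reads of overlapping transcripts cannot be separated. kallisto, which splits reads between matching transcripts, edgeR and limma are named in the submitters' processing notes. Their versions and the transcriptome were not given in the sources used here. Per the file headers, the authors' deposited values are estimated counts, not scaled between libraries, and TPM, beside the length and effective length in bases. The estimated counts of all 24 libraries were rounded, filtered (filterByExpr, minimum count 10, minimum total 15) and scaled by TMM, and edgeR 4.0.16 (R 4.3.3) fitted 1 mean per group (glmQLFit, glmQLFTest, two-sided). The biological coefficient of variation was 0.374. The tested contigs held at least 99.92% of counts in each library. SE were derived from the F statistic; log2 CPM used a prior count of 2. limma 3.58.1 (voom) and DESeq2 1.42.0 were alternatives. The code was tested on simulated data.

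In each comparison at most 2 contigs that rose and 2 that fell were named, taken from the called contigs that reached a mean log2 CPM of 3 in the libraries of that comparison: in stems at 1 day those with the largest fitted change and the largest TPM difference, in the interactions those with the largest values. The members, lists and tests were chosen with earlier results of these data known. Pathway and marker lists were not tested, as no contig has a gene name. Counting limits cover counting error only, since PCR copies are not marked. Sequences of the contigs were not used here.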

Additional observations from a re-analysis of the deposited data

Results flagged for a closer look

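The responses below differed between groups by a test of the difference itself (edgeR, interaction terms; all adjusted p under 0.05). Between stems and petioles at 1 day 119 contigs differed. The named ones were GEMC01064667.1 with a log2 difference, stem minus petiole, of 3.48, GEMC01044483.1 with 2.61, GEMC01015786.1 with -4.32 and GEMC01030224.1 with -2.94. Between 1 and 2 days in stems 71 contigs differed. The named ones were GEMC01011130.1 with a log2 difference, 1 day minus 2 days, of 3.87, GEMC01024297.1 with 2.65, GEMC01017346.1 with -1.83 and GEMC01016520.1 with -1.74. The calls of GEMC01015786.1 and GEMC01030224.1 held in each of 20 other fits. Those of GEMC01044483.1, GEMC01011130.1 and GEMC01016520.1 ended in 11 of 20 each, those of GEMC01064667.1 and GEMC01024297.1 in 7 each and that of GEMC01017346.1 in 6.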

How the results depend on the processing

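No named contig changed sign under any alternative run. Balances of calls did turn, among them these: library totals alone gave 4304 higher and 5747 lower in stems at 1 day, 6430 and 4134 in stems at 2 days, and 4502 and 2397 for stem against petiole in air; the libraries compared alone gave 231 and 134 for the time interaction; and without replicate 1 of submerged petioles 7560 were higher and 7730 lower in petioles at 1 day. The count of contigs called in stems at 1 day lay between 7863 and 8459 with 1 library left out, and between 9759 and 12461 under other scalings, filters and tools. It was 2321 (1330 higher and 991 lower) with a 2-fold bound (glmTreat), which also gave 8.37% of TPM under water in contigs called higher, 4.8% of TPM in air in contigs called lower and 6.06% called in the highest level class. Contigs with whole counts, a choice made after seeing the data, numbered 2379 called, 1610 of them changed at least 2-fold and 331 at least 8-fold; fewer contigs were tested. Fits to the libraries compared alone called 6100 contigs in petioles at 1 day, against 13080, and gave 40.5% of stem calls met again there. They gave 30.7% of stem-rich contigs called lower, with 31.8% under limma-voom. Each of these fits chose the stem-rich contigs anew, and all contigs called lower in stems at 1 day numbered 5846 and 5923. Without a library, stem against petiole in air at 2 days gave 3457 to 4390 calls, lowest without replicate 1 of stems in air. Interactions, tissue then time: library totals alone 203 and 282, DESeq2 670 and 923, libraries compared alone 15 and 365, limma-voom 64 for tissue, stricter filter 118 for time; without 1 library 53 to 299 and 4 to 101. The cause of these shifts was not tested. GEMC01052508.1 and GEMC01038980.1 were not past a 2-fold bound (edgeR glmTreat, adjusted p = 0.21 and 0.59). Under a replicate block the calls numbered 10373 in stems at 1 day, 121 for the tissue and 89 for the time interaction; no named call ended. Whether the numbers mark shared plants is not stated. Deviations of same-numbered libraries correlated at 0.06, 0.038 and -0.007 between stems under water and in air. They correlated at 0.175, 0.062 and 0.131 between petioles under water and in air, and at 0.032, 0.032 and 0.041 between submerged stems and petioles. Libraries of different numbers correlated at -0.087 to 0.046, -0.153 to 0.013 and -0.032 to 0.001 in the same order. Other pairs of groups are not given here, and pairing by number was not tested further. A count of 0 allows up to 3 counts, which limits folds of such contigs.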

Other observations

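The responses of 5 contigs in stems at 1 day differed both from petioles and from the second day, all 5 in the same direction against both. They were 4.2% of the tissue differences, while 0.132% of all tested contigs differed by time. They were also 7.04% of the time differences, while 0.221% of all tested contigs differed by tissue. Both tests contain the same stem change at 1 day, so the overlap and the shared direction are partly built in. The 5 contigs were chosen after their values were seen. GEMC01040339.1 (1660 bases) fell in stems at 1 day by 1.43 on the log2 scale, with 4.31 to 5.28 TPM under water and 12.5 to 16.2 TPM in air, and had changes of 0.39 in petioles and -0.02 in stems at 2 days. GEMC01017346.1 had changes of -1.76, -0.30 and 0.07 in the same order. GEMC01054504.1 (1963 bases) had -0.34, 0.80 and 0.50. GEMC01024455.1 (761 bases) rose by 1.75 in stems at 1 day and had changes of 6.17 in petioles and 4.23 in stems at 2 days.

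The fifth, GEMC01061347.1 (2780 bases), had 0, 0 and 0 rounded counts in submerged stems at 1 day, against 1095, 903 and 1978 counts in stems in air. Taking 3 counts a library as the floor, its estimated counts were at least 442-fold lower under water. That bound covers counting alone and not the assignment of reads between similar contigs. The TPM of this contig in submerged stems at 1 day was not 0, but ran from 3.363e-05 to 0.0006074. Submerged stems at 2 days had 502, 256 and 381 counts, against 1381, 605 and 1500 in air, and submerged petioles at 1 day had 21, 207 and 30, against 742, 1447 and 925 in air. Contigs with nearby numbers moved in both directions. GEMC01061345.1 (2291 bases) fell by 3.74 ± 0.32 on the log2 scale in stems at 1 day (SE; edgeR, adjusted p = 6.5e-08), with 141, 110 and 45 counts under water and 1036, 863 and 1887 in air. GEMC01061349.1 (2798 bases) rose by 0.55 ± 0.13 (SE; edgeR, adjusted p = 0.0038), with 1164, 745 and 749 counts under water and 514, 461 and 719 in air. GEMC01061346.1 (2597 bases) had no count in any submerged stem at 1 day and 0, 18 and 41 counts in air (edgeR, adjusted p = 0.19). Whether reads passed between these contigs in the assignment was not tested.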
